A study of Homo sapiens with 10 samples.

Results

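RNA polymerase II is the enzyme that transcribes protein-coding genes, and Mediator is the large complex that carries signals from factors bound at enhancers to the polymerase at promoters. Mediator consists of a head and a middle module that contact the polymerase, a backbone subunit, a tail that binds many activators, and a detachable kinase module with cyclin C and CDK8 or its paralog CDK19. CREBBP and EP300, the acetyltransferases whose bromodomains CBP30 and I-CBP112 bind, act at the same enhancers as Mediator. The genes described here are those of the 2 complexes themselves. They were taken from the expression table by symbol (MED followed by a number, POLR2A to POLR2L with their copies, CCNC, CDK8 and CDK19) with a mean of at least 0.5 FPKM, a unit that scales the fragments of a gene by transcript length and by library size. The rule gave 47 of the 48 rows with such a symbol, out of 23284 genes in the table, namely 32 genes of Mediator with its kinase module and 15 of RNA polymerase II. The row left out was MED12L, a paralog of MED12, which was listed between 0 and 0.00525 FPKM.

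The cells were K562, an established human chronic myelogenous leukemia line with erythroid features. They were kept for 48 h in vehicle (DMSO) or in 1 of the inhibitors, CBP30 or I-CBP112, each given at 2 and at 5 µM. Each of the 5 conditions had 2 biological replicates, 10 samples in all, and polyadenylated RNA was sequenced. The groups share the unmodified line and carry no genetic change, and the DMSO samples serve every comparison with vehicle, so those comparisons are not independent of each other. All 8 markers of K562 that were examined were expressed, from a median of 17.7 FPKM for TAL1 to 216 FPKM for HBG2, and of 10 markers of other cell types CD3D and EPCAM were also expressed (medians of 19.4 and 47.6 FPKM) whereas MS4A1 and KRT5 were at 0. In bulk RNA, fewer cells of a kind and less RNA per cell cannot be told apart.

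FPKM values hold no counts. From long genes detected in few libraries, the relative depth of the samples ranged from 0.943 to 1.06, so no library was much shallower than the rest. Replicates correlated with r from 0.962 to 0.976 over the genes tested. Replicate 1 of 2 µM CBP30 stood apart by transcript length. Over the 47 genes, its difference from DMSO had a Spearman correlation with transcript length of -0.74 (-0.47 over the 12135 tested genes with a known length), compared with -0.31 in replicate 2 and 0.17 in both samples of 5 µM CBP30. In the I-CBP112 libraries the correlation over the 47 genes ranged from -0.44 (replicate 1 of 5 µM) to 0.32 (replicate 1 of 2 µM). These correlations describe single libraries over genes that share library and length, and were given no p. Of the 9 genes with transcripts of at least 6000 bases (among them MED1, MED12, MED13, MED13L, MED14 and POLR2A), 8 lay below DMSO in that library, with a median of -0.54 on the log2 scale, and of the 9 under 1000 bases, 7 lay above, with a median of 0.61. In replicate 2 the medians were -0.08 and 0.14. For 28 of the 47 genes, the highest or the lowest of the 10 values fell in that library. Calls that involve 2 µM CBP30 are therefore given with and without it. Without it, 2 µM CBP30 is left with 1 sample, which the fit assumes to vary like the other groups. A smaller adjusted p in such a fit is therefore not stronger evidence. The part of transcript length in any difference described here was not tested.

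**Figure D1:**
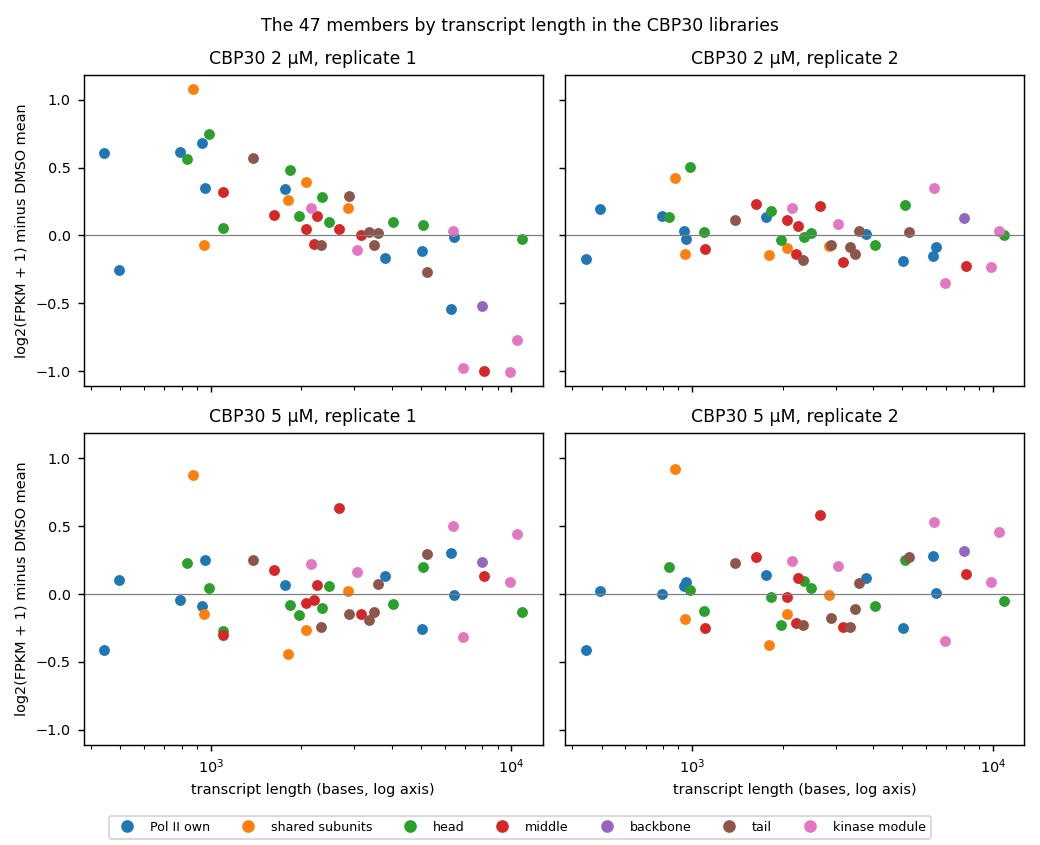
Difference of each of the 47 genes from the DMSO mean in log2(FPKM + 1) (vertical axis) against transcript length in bases (horizontal log axis), in each CBP30 library, coloured by role. In replicate 1 of 2 µM CBP30, 7 of the 9 transcripts under 1000 bases lie above 0 and 8 of the 9 of at least 6000 bases lie below it, down to -1.01, with MED28, the longest, near 0. In the other 3 libraries the long transcripts reach -0.35 at the lowest.

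The 2 complexes were well expressed. The median of the gene means was 22.0 FPKM, compared with 11.7 over all 12788 genes tested. Since FPKM is a level per length, genes can be ranked by it. RNA polymerase II subunits had a median level of 45.0 FPKM, with POLR2G, a stalk subunit, the highest at 145 FPKM, followed by POLR2L at 115. Mediator genes had a median of 17.5 FPKM, led by the tail subunit MED15 at 106 FPKM and by CCNC, which encodes cyclin C, at 74.6. Levels above 20 FPKM were found for 25 genes and levels under 2 FPKM for 3, the copies POLR2J2, POLR2J3 and POLR2J4. The ratio of the highest to the lowest of the 10 samples had a median of 1.40 over the genes, and 1.25 when replicate 1 of 2 µM CBP30 was left out, in which case 46 of the 47 genes stayed within a 2-fold range.

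The first comparison asked how the genes of these complexes responded to 5 µM CBP30. Values were tested with limma on log2(FPKM + 1) over all 12788 genes, and a gene was called when its Benjamini-Hochberg adjusted p was under 0.05. Called members numbered 11 (23.4%), of which 7 rose (POLR2L, MED21, CDK19, MED23, CCNC, MED31 and MED17) and 4 fell (POLR2H, POLR2D, MED25 and MED15). Over all genes tested, 21.2% rose and 25.4% fell, compared with 14.9% and 8.51% of the members. The median log2 fold change of the members was 0.01, as against -0.01 over all genes, with 24 above and 23 below 0. Their fold changes ranged from -0.41 to 0.90, so none of the 47 changed by as much as 1 on this scale. Under quantile normalization 10 rose and 1 fell. The counts depend on which samples set the spread. Without either sample of 2 µM CBP30, 15 members rose and 12 fell, and in both cases the 11 called with all samples were among them. These were 31.9% and 25.5% of the members, as against 29.5% and 33.4% of all genes without replicate 1 and 29.5% and 33.5% without replicate 2. With the length trend removed from each library, 29.8% of members rose and 12.8% fell, as against 27.3% and 28.0% of all genes, so how the members' shares compare with those of all genes depends on the setting for genes that rose. Without replicate 1 or 2 of DMSO, 3 and 4 rose and 1 and 2 fell. Without replicate 1 or 2 of 5 µM CBP30, 4 and 3 rose and 1 and 0 fell, the remaining sample being assumed to vary like the other groups.

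**Figure D2:**
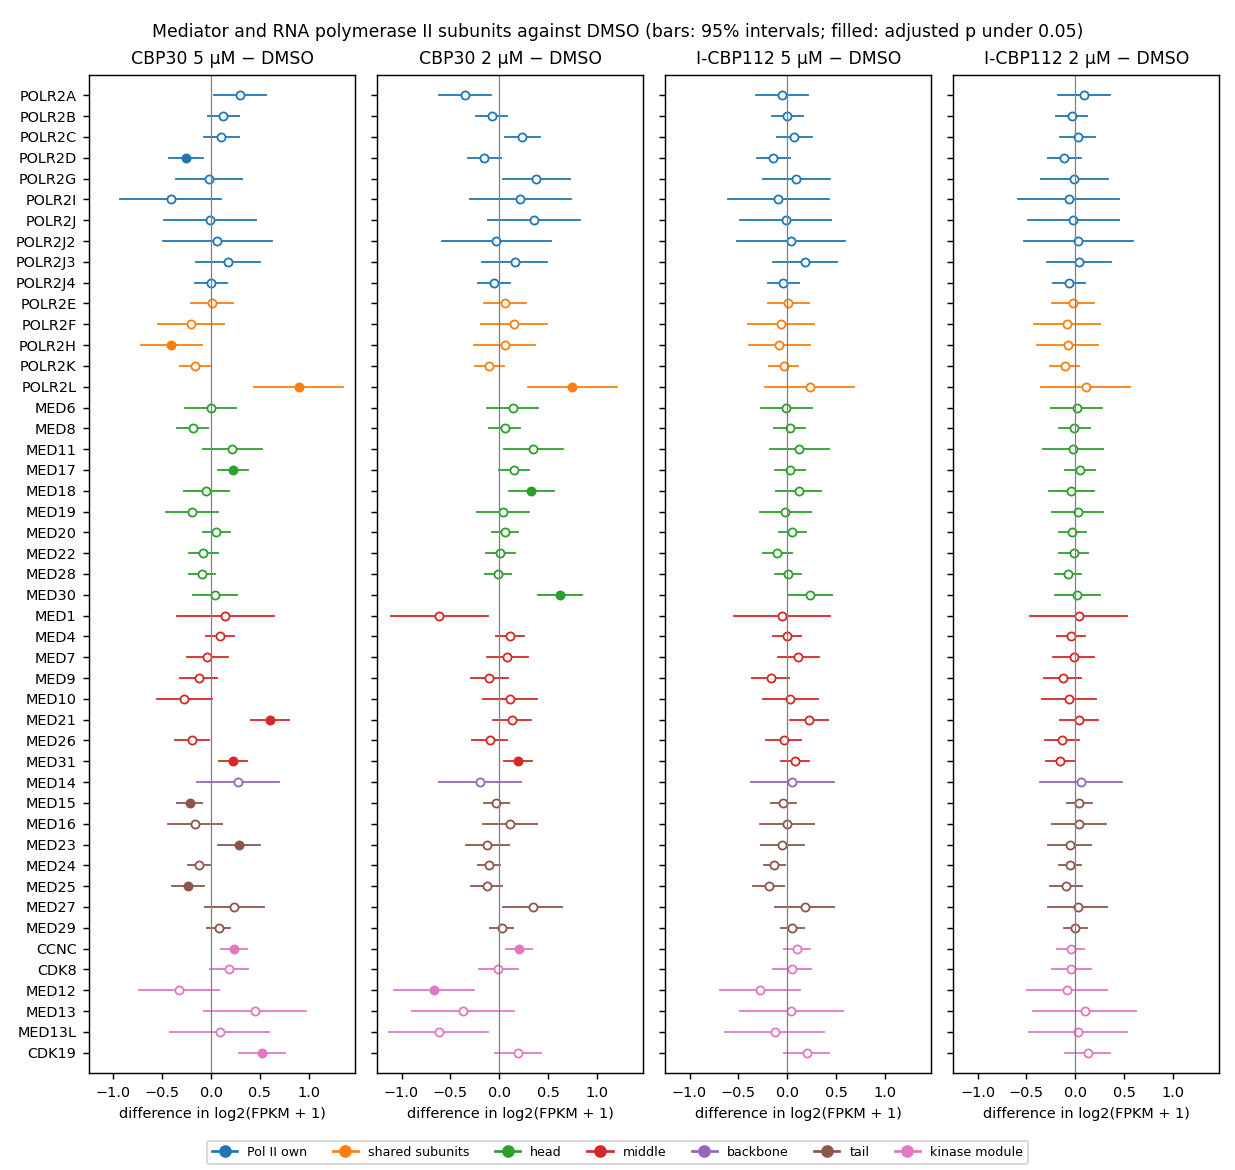
Difference from DMSO in log2(FPKM + 1) for each of the 47 genes (rows, grouped by role) in 4 panels, CBP30 (5 and 2 µM) before I-CBP112 (5 and 2 µM). Points are limma estimates from 2 samples per condition, bars are 95% intervals and filled points have an adjusted p under 0.05, which holds for 11 genes at 5 µM CBP30, 6 at 2 µM CBP30 and 0 in both I-CBP112 panels.

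Among the subunits that belong to RNA polymerase II alone, neither of the 2 large catalytic subunits was called against DMSO at 5 µM CBP30 with all samples in the fit. POLR2A, which encodes the largest subunit with the heptad-repeat tail, was at 28.3 and 29.9 FPKM with DMSO, 19.7 and 26.0 with 2 µM CBP30, 36.2 and 35.6 with 5 µM CBP30, while with I-CBP112 it was at 31.5 and 30.5 at 2 µM and 27.8 and 28.1 at 5 µM. Both samples of 5 µM CBP30 were above every other sample and both samples of 2 µM CBP30 were below every other. The difference of 5 µM CBP30 from DMSO was 0.29 (SE 0.11) and missed the threshold in limma with all samples (adjusted p = 0.0674), but passed it without replicate 1 of 2 µM CBP30 (adjusted p = 0.000654). POLR2B, the other large catalytic subunit, was at 69.7 and 75.7 FPKM with DMSO and at 79.8 and 78.8 with 5 µM CBP30, a log2 difference of 0.12 (95% interval -0.04 to 0.28, limma adjusted p = 0.173). POLR2D, a subunit of the stalk, was the single subunit of this kind that fell, from 47.5 and 51.3 FPKM to 41.0 and 41.3, by 0.26 on the log2 scale (SE 0.073, limma adjusted p = 0.0237), a call lost without replicate 2 of DMSO or either sample of 5 µM CBP30 (adjusted p up to 0.132 over all settings). Its stalk partner POLR2G was at 133 and 137 FPKM with DMSO and at 131 and 135 with 5 µM CBP30. POLR2I, a small subunit involved in start site choice and proofreading, was at 33.5 and 34.7 FPKM with DMSO and 25.3 in both samples of 5 µM CBP30, with values from 30.1 to 52.4 elsewhere. Its log2 fold change of -0.41 was the most negative of the members but was not called (limma adjusted p = 0.163), and the annotation places 42.2% of its exonic bases against exons on the other strand, mostly of OVOL3.

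POLR2J encodes a subunit of the assembly platform and has 3 copies in the genome, all with low levels. POLR2J was between 29.3 and 53.2 FPKM, the highest value again in replicate 1 of 2 µM CBP30, and POLR2J2, POLR2J3 and POLR2J4 reached 1.04, 1.77 and 1.14 FPKM at most. Part of their transcripts cannot be told apart with reads of 50 bases. The first exon of POLR2J holds this stretch, found on the minus strand at chr7:102119257-102119306 (hg19) and shown because the same letters occur at 4 places on chromosome 7, 1 in each of the 4 genes:

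POLR2J: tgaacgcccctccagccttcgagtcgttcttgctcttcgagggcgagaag

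Of all 50-base windows in the annotated transcripts of each gene, the share also found in another copy was 33.3% for POLR2J, 63.9% for POLR2J2, 44.7% for POLR2J3 and 8.03% for POLR2J4. The split of reads among the copies is therefore uncertain, and with all samples in the fit none of the 4 was called in any comparison with DMSO. By the same count, CDK8 and CDK19 shared 0 windows, as did MED13 and MED13L, so these paralogs have no exact 50-base stretch in common. Matches with mismatches or elsewhere in the genome were not counted.

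Of the 5 subunits shared with RNA polymerases I and III, 1 rose and 1 fell with 5 µM CBP30. Over all genes 21.2% rose and 25.4% fell. POLR2L, a small subunit needed for assembly of the enzymes, was at 82.8 and 84.2 FPKM with DMSO, 178 and 112 with 2 µM CBP30, 154 and 159 with 5 µM CBP30, while with I-CBP112 it was at 84.6 and 95.7 at 2 µM and 105 and 91.3 at 5 µM. Every CBP30 sample was above every other sample. POLR2L rose by 0.90 with 5 µM CBP30 (SE 0.19, limma adjusted p = 0.00781), a ratio of means of 1.87 and the largest change among the members in this comparison. At 2 µM the rise was 0.75 (limma adjusted p = 0.0252), and 0.42 without replicate 1 (adjusted p = 0.0219). POLR2L, CDK19 and MED21 were the members that stayed called at 5 µM CBP30 under all 20 settings, the leave-one-out fits included. POLR2H, another shared subunit, was at 62.3 and 70.0 FPKM with DMSO, 79.3 and 59.7 with 2 µM CBP30, 48.3 and 50.7 with 5 µM CBP30, while with I-CBP112 it was at 58.7 and 67.0 at 2 µM and 62.7 and 62.3 at 5 µM. The samples of 5 µM CBP30 were the lowest of the 10. POLR2H fell by 0.41 (SE 0.13, limma adjusted p = 0.0392), a call that held in 9 of the 20 settings and was lost, among others, without any single sample of DMSO, of 5 µM CBP30 or of I-CBP112 (adjusted p up to 0.186 over all settings). The remaining shared subunits POLR2E, POLR2F and POLR2K were not called with either concentration of CBP30.

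Promoters were examined for the members that moved. RefSeq (GRCh38.p14) gave the 250 bases before the transcript start for 33 of the 47 genes. Those shown are the 2 highest and 2 lowest called members with an entry. Capitals mark the GC box word GGGCGG and the ETS word CCGGAA, on either strand, and a base may belong to both. The 4 windows are chr11:842530-842779 (minus strand) for POLR2L, chr6:110815856-110816105 (minus strand) for CDK19, chr3:184361460-184361709 (plus strand) for POLR2H and chr2:127858156-127858405 (minus strand) for POLR2D, each written 5′ to 3′ in the direction of the gene:

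POLR2L: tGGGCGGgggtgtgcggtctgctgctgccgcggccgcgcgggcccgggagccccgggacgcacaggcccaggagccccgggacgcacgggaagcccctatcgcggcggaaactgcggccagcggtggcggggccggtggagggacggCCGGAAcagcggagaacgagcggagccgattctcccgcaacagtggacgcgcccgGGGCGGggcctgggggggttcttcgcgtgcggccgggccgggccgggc
CDK19: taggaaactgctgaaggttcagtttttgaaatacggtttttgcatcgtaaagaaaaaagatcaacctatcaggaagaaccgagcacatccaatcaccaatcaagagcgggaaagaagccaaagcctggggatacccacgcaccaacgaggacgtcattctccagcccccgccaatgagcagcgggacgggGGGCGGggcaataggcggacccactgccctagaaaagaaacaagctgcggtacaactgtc
POLR2H: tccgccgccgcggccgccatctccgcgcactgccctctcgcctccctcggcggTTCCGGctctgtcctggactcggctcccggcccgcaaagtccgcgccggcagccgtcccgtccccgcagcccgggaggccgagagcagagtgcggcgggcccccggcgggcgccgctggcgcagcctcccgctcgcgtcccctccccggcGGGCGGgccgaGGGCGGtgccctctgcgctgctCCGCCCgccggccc
POLR2D: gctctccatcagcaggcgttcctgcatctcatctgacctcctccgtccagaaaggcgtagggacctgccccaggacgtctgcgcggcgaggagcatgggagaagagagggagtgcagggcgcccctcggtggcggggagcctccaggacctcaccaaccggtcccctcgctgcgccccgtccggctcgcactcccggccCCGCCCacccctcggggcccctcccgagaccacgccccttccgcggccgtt

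The 4 windows shown all had GC box words, 2 in POLR2L, 1 in CDK19, 3 in POLR2H and 1 in POLR2D. Of the other called members, MED31 had 4 and MED23, MED15 and MED25 had 1 each. CCNC and MED17, which both rose, had 0, and MED21 had no entry. The GC box word was found in 66.7% of the 33 member promoters and in 42.3% of all 27305 RefSeq promoters of the same length, and the ETS word in 36.4% and 14.8%. The E-box word CACGTG, a letter pattern that MYC can bind, was in 6.06% of member promoters (CDK8 and MED13L) and 6.49% of all. A GATA word (AGATAA or TGATAA) was in 3.03% (MED1 alone) and 14.9%, and the TATA word TATAAA in 6.06% and 11.1%. Both strands were searched for each of the 5 words. The median GC content of the windows was 59.2% for members and 58% for all promoters. Members had to reach a mean of 0.5 FPKM, whereas all RefSeq promoters were counted whether or not the gene was expressed. The shares among promoters of expressed genes alone were not counted, so these differences are not read as particular to the 2 complexes. A match of letters describes the window and does not show that a factor binds there.

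Of the 10 head subunits of Mediator, MED17 alone was called with 5 µM CBP30, where 21.2% of all genes rose and 25.4% fell. MED17, the scaffold of the head, was at 9.60 and 10.0 FPKM with DMSO, 10.4 and 11.6 with 2 µM CBP30, 11.4 and 11.8 with 5 µM CBP30, while with I-CBP112 it was at 10.4 and 9.97 at 2 µM and 10.2 and 9.84 at 5 µM. Its rise of 0.22 (SE 0.065, limma adjusted p = 0.0278) was lost without any single sample of DMSO or 5 µM CBP30 (adjusted p up to 0.141 over all settings), and 42.4% of its exonic bases overlap another gene model on its strand, as do 45.6% of those of MED26. MED8, another head subunit, was at 60.9 and 62.4 FPKM with DMSO and 55.4 and 52.5 with 5 µM CBP30, and just missed the threshold against DMSO (-0.19, limma adjusted p = 0.053). MED30 and MED18 were close to DMSO at 5 µM (0.04 and -0.05) and are described with 2 µM CBP30.

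In the middle module, 2 of 8 subunits rose and 0 fell with 5 µM CBP30, beside 21.2% and 25.4% of all genes. MED21, which forms the hinge of the module with MED7, was at 24.5 and 27.6 FPKM with DMSO, 26.9 and 30.4 with 2 µM CBP30, 40.9 and 39.4 with 5 µM CBP30, while with I-CBP112 it was at 27.9 and 25.6 at 2 µM and 31.1 and 30.1 at 5 µM. The samples of 5 µM CBP30 were the highest, with no overlap with any other condition. MED21 rose by 0.61 (SE 0.082, limma adjusted p = 0.001), a ratio of means of 1.54, whereas MED7 was not called. MED31, a small and highly conserved subunit, was at 7.08 and 7.06 FPKM with DMSO and 8.12 and 8.76 with 5 µM CBP30, a rise of 0.23 (SE 0.060, limma adjusted p = 0.0189). In the annotation 75.6% of its exonic bases lie opposite exons of TXNDC17, which was at 19.6 and 22.8 FPKM with DMSO and 25.9 and 27.4 with 5 µM CBP30. The libraries kept the strand, but whether the counting used it is not given in the sources used here, so the values of MED31 are uncertain. Its call was also lost without either sample of DMSO or replicate 2 of 5 µM CBP30. MED1, the subunit that binds nuclear receptors and GATA1, was at 18.4 and 19.1 FPKM with DMSO, 8.90 and 15.9 with 2 µM CBP30, 20.7 and 21.0 with 5 µM CBP30, while with I-CBP112 it was at 20.1 and 18.4 at 2 µM and 17.9 and 18.2 at 5 µM. MED1 therefore stood below all other samples with 2 µM CBP30 and above them with 5 µM, without being called against DMSO at either (0.14, 95% interval -0.35 to 0.64, limma adjusted p = 0.609 at 5 µM). MED26, the subunit that exchanges with the kinase module and recruits elongation factors, was at 5.84 and 5.92 FPKM with DMSO and 5.21 and 4.81 with 5 µM CBP30 (-0.20, limma adjusted p = 0.0707).

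MED14, the backbone that joins the modules, was at 13.1 and 13.4 FPKM with DMSO, 8.92 and 14.5 with 2 µM CBP30, 15.8 and 16.7 with 5 µM CBP30, while with I-CBP112 it was at 14.3 and 13.4 at 2 µM and 13.4 and 14.1 at 5 µM. The samples of 5 µM CBP30 were the highest, but the difference of 0.28 (SE 0.18) was not called (limma adjusted p = 0.247). Of the 7 tail subunits, 1 rose and 2 fell with 5 µM CBP30, beside 21.2% and 25.4% of all genes. MED23, which links activators such as ELK1 to the complex, was at 10.9 and 11.2 FPKM with DMSO and 13.8 and 13.6 with 5 µM CBP30, the highest of all samples, and rose by 0.28 (SE 0.092, limma adjusted p = 0.0391). MED15, which binds the lipid regulators of the SREBP family, was at 111 and 108 FPKM with DMSO, 111 and 103 with 2 µM CBP30, 95.5 and 92.4 with 5 µM CBP30, while with I-CBP112 it was at 113 and 112 at 2 µM and 108 and 105 at 5 µM. The samples of 5 µM CBP30 were the lowest, and MED15 fell by 0.22 (SE 0.054, limma adjusted p = 0.0144). MED25, which binds activators of the ETV family, was at 32.8 and 29.4 FPKM with DMSO and 26.1 and 26.4 with 5 µM CBP30. It fell by 0.24 (SE 0.068, limma adjusted p = 0.0266). Of the 10 alternatives other than leaving out a sample, MED15 stayed called in 9, MED25 in 8 and MED23 in 8. The call of MED23 was lost without any single sample of DMSO, of 5 µM CBP30 or of I-CBP112 (adjusted p up to 0.149 over all settings), and those of MED15 and MED25 without replicate 1 of DMSO or replicate 2 of 5 µM CBP30, with MED25 also lost without replicate 1 of 5 µM CBP30.

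In the kinase module 2 of 6 genes rose and 0 fell with 5 µM CBP30, beside 21.2% and 25.4% of all genes. CCNC, the cyclin, was at 67.4 and 71.7 FPKM with DMSO, 79.9 and 80.1 with 2 µM CBP30, 81.1 and 82.6 with 5 µM CBP30, while with I-CBP112 it was at 64.7 and 69.9 at 2 µM and 76.3 and 72.6 at 5 µM. All CBP30 samples were above all others, and CCNC rose by 0.23 at 5 µM (SE 0.057, limma adjusted p = 0.0138) and by 0.20 at 2 µM (adjusted p = 0.0356). The call at 5 µM was lost without replicate 1 of DMSO or either sample of 5 µM CBP30. The 2 kinases that pair with it differed in level and were not called alike. CDK8 was at 21.7 and 24.4 FPKM with DMSO, 21.3 and 24.5 with 2 µM CBP30, 25.9 and 26.7 with 5 µM CBP30, while with I-CBP112 it was at 23.3 and 21.5 at 2 µM and 23.9 and 23.8 at 5 µM. CDK19 was at 6.78 and 7.09 FPKM with DMSO, 7.13 and 9.10 with 2 µM CBP30, 10.3 and 10.5 with 5 µM CBP30, while with I-CBP112 it was at 7.84 and 7.49 at 2 µM and 8.38 and 7.83 at 5 µM. For both kinases the samples of 5 µM CBP30 were the highest of the 10. CDK19 rose by 0.52 (SE 0.099, limma adjusted p = 0.00472), a ratio of means of 1.50, and CDK8 had a difference of 0.18 (95% interval -0.01 to 0.38, adjusted p = 0.114). Whether the change of the paralogs differs was not tested.

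**Figure D3:**
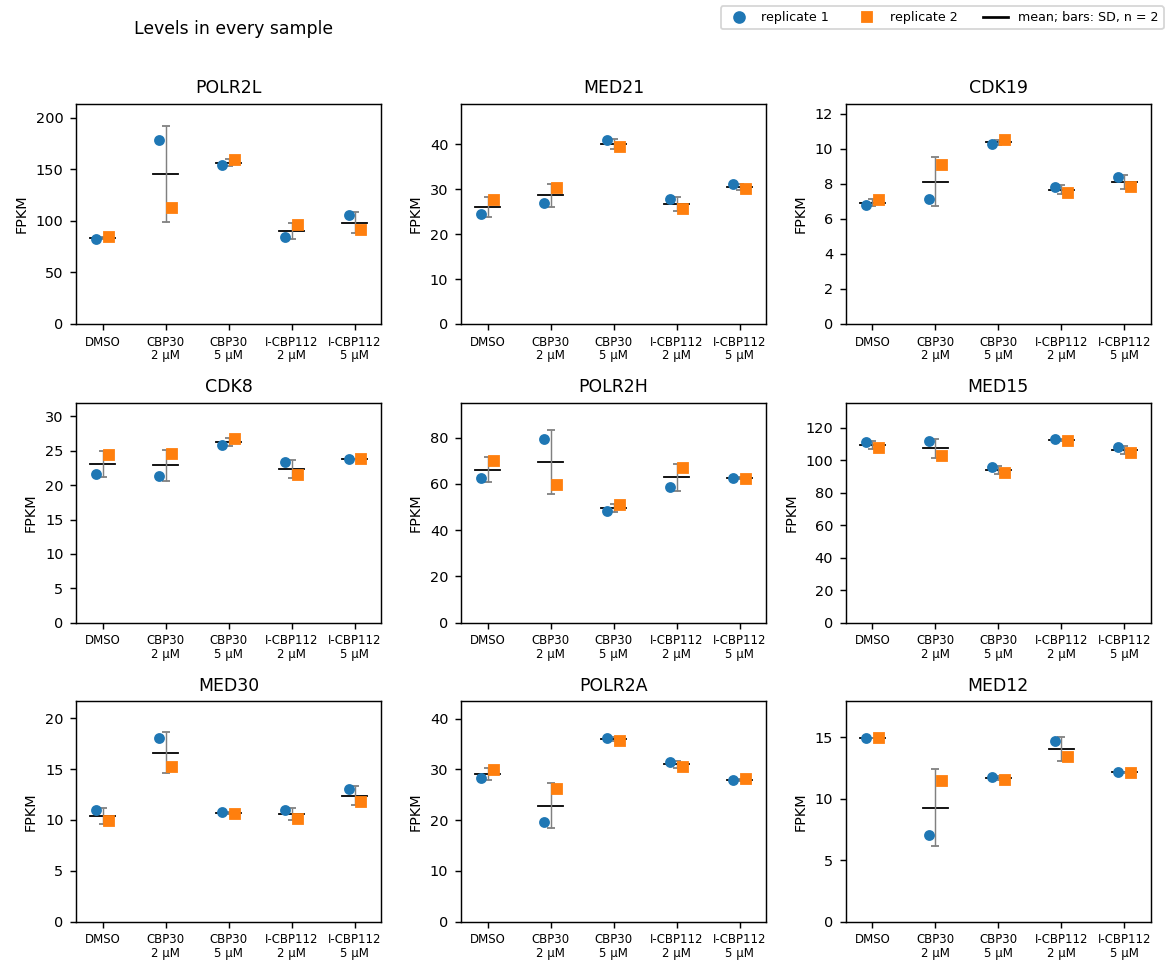
FPKM (vertical axis from 0) in every sample for 9 of the genes, with DMSO and both concentrations of each compound along the horizontal axis. Circles and squares are replicates 1 and 2, lines are means and bars are SD (n = 2). POLR2L is higher in every CBP30 sample than in any other, MED21 and CDK19 are highest at 5 µM CBP30, and POLR2H and MED15 are lowest there. Replicate 1 of 2 µM CBP30 lies apart from replicate 2 in POLR2L, POLR2H, POLR2A and MED12.

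The other 3 genes of the module encode large proteins with transcripts over 6000 bases. MED12, which activates the kinase, was at 14.9 FPKM in both DMSO samples, 7.07 and 11.5 with 2 µM CBP30, 11.8 and 11.5 with 5 µM CBP30, while with I-CBP112 it was at 14.7 and 13.4 at 2 µM and 12.2 and 12.1 at 5 µM. All samples of CBP30 and of 5 µM I-CBP112 were below all those of DMSO and 2 µM I-CBP112. The difference at 5 µM CBP30 was -0.33 (SE 0.17, limma adjusted p = 0.161) and became a call without replicate 1 of 2 µM CBP30 (adjusted p = 0.00138). MED13, which joins the module to Mediator, was at 14.0 and 15.2 FPKM with DMSO, 8.10 and 14.9 with 2 µM CBP30, 20.1 and 20.3 with 5 µM CBP30, while with I-CBP112 it was at 16.7 and 14.7 at 2 µM and 15.0 and 15.1 at 5 µM. Its samples of 5 µM CBP30 were the highest, with a log2 difference of 0.45 (SE 0.22, limma adjusted p = 0.141, and 0.00148 without replicate 1 of 2 µM CBP30). Its paralog MED13L was at 16.7 and 18.2 FPKM with DMSO and at 18.6 in both samples of 5 µM CBP30 (0.09, limma adjusted p = 0.769).

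At 2 µM CBP30, 5 members rose (POLR2L, MED30, MED18, CCNC and MED31) and 1 fell (MED12), compared with 15.9% and 16.3% of all genes tested. MED30, a head subunit found in metazoans, was at 10.9 and 9.85 FPKM with DMSO, 18.1 and 15.2 with 2 µM CBP30, 10.7 and 10.6 with 5 µM CBP30, while with I-CBP112 it was at 11.0 and 10.1 at 2 µM and 13.0 and 11.7 at 5 µM. Both samples of 2 µM CBP30 were above all others. MED30 rose by 0.63 (SE 0.097, limma adjusted p = 0.00369), and by 0.51 without replicate 1 (adjusted p = 0.00738). MED18, also of the head, was at 18.2 and 19.2 FPKM with DMSO and 26.4 and 21.3 with 2 µM CBP30, a rise of 0.33 (SE 0.097, limma adjusted p = 0.0393) that was not called without replicate 1. MED12 fell by 0.67 (SE 0.17, limma adjusted p = 0.0267), and by 0.35 without replicate 1. MED1 and MED13L differed from DMSO by -0.61 and -0.62 without being called. Without replicate 1 or replicate 2 of 2 µM CBP30, that group kept 1 sample. More members were then called, as were more of all genes tested, so these counts are not read as a result about the members. Leaving out either replicate of DMSO or of 5 µM CBP30 left 1 that rose and 0 that fell. Without either replicate of 2 µM I-CBP112, 3 rose and 1 fell, and without either of 5 µM I-CBP112, 2 rose and 0 fell. The genes that were called without replicate 1 of 2 µM CBP30 were MED12, MED1, MED26, POLR2A and MED24 below DMSO, and CCNC, MED17, MED31, CDK19, POLR2L and MED30 above it, compared with 19.9% of all genes below and 17.2% above. In that fit CCNC rose by 0.20 (limma adjusted p = 0.0485) and MED31 by 0.23 (adjusted p = 0.0302).

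With I-CBP112, limma called 0 members at 5 µM and 0 at 2 µM. At 5 µM, 3.84% of all genes tested rose and 3.28% fell, and at 2 µM 0.868% rose and 0.735% fell. At an unadjusted p under 0.05, there were 4 members at 5 µM (MED21 and MED30 above DMSO, MED24 and MED25 below) and 1 at 2 µM (MED31, below DMSO). These were 8.51% and 2.13% of the members, as against 22.0% and 13.8% of all genes at the same unadjusted p. Differences from DMSO lay between -0.28 and 0.23 at 5 µM and between -0.16 and 0.13 at 2 µM, with medians of 0.00 and -0.02. Without either sample of 2 µM CBP30, 2 members rose and 2 fell at 5 µM (without replicate 1, CDK19 and MED27 above DMSO and MED12 and MED24 below), where 10.5% of all genes rose and 12.4% fell in both fits.

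The compounds were compared at matched doses, in 2 comparisons, each adjusted over all genes tested. At 5 µM, 4 members were higher with CBP30 than with I-CBP112 (POLR2L, MED21, MED23 and CDK19) and 2 were lower (MED8 and MED15), compared with 13.6% and 17.9% of all genes. The differences were 0.67 for POLR2L (95% interval 0.21 to 1.12, limma adjusted p = 0.0373), 0.38 for MED21 (0.19 to 0.57, adjusted p = 0.0134), 0.33 for MED23 (0.12 to 0.55, adjusted p = 0.0317) and 0.32 for CDK19 (0.09 to 0.56, adjusted p = 0.0463). They were -0.21 for MED8 (-0.37 to -0.06, limma adjusted p = 0.0475) and -0.18 for MED15 (-0.30 to -0.05, adjusted p = 0.0459). Under median centring 6 were higher and 0 lower, and under quantile normalization 7 and 0. The levels of POLR2L were 154 and 159 FPKM with CBP30 and 105 and 91.3 with I-CBP112 at this dose, and those of MED8, a head subunit, were 55.4 and 52.5 as against 64.1 and 61.4. POLR2A differed by 0.35 (95% interval 0.09 to 0.61) and just missed the threshold (limma adjusted p = 0.0515). For MED12 the compounds differed by -0.05, with an interval of -0.47 to 0.36, and for CDK8 by 0.14 (-0.06 to 0.33), which leaves room for differences in either direction. The intervals were narrower for MED20 (-0.14 to 0.14) and MED24 (-0.10 to 0.12). Without replicate 1 or 2 of 2 µM CBP30, more members were called in both directions, as were more of all genes tested. Leaving out any single sample of DMSO or of 2 µM I-CBP112 left 1 higher, and any single sample of 5 µM CBP30 or 5 µM I-CBP112 left 0, with 0 lower in each case.

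**Figure D4:**
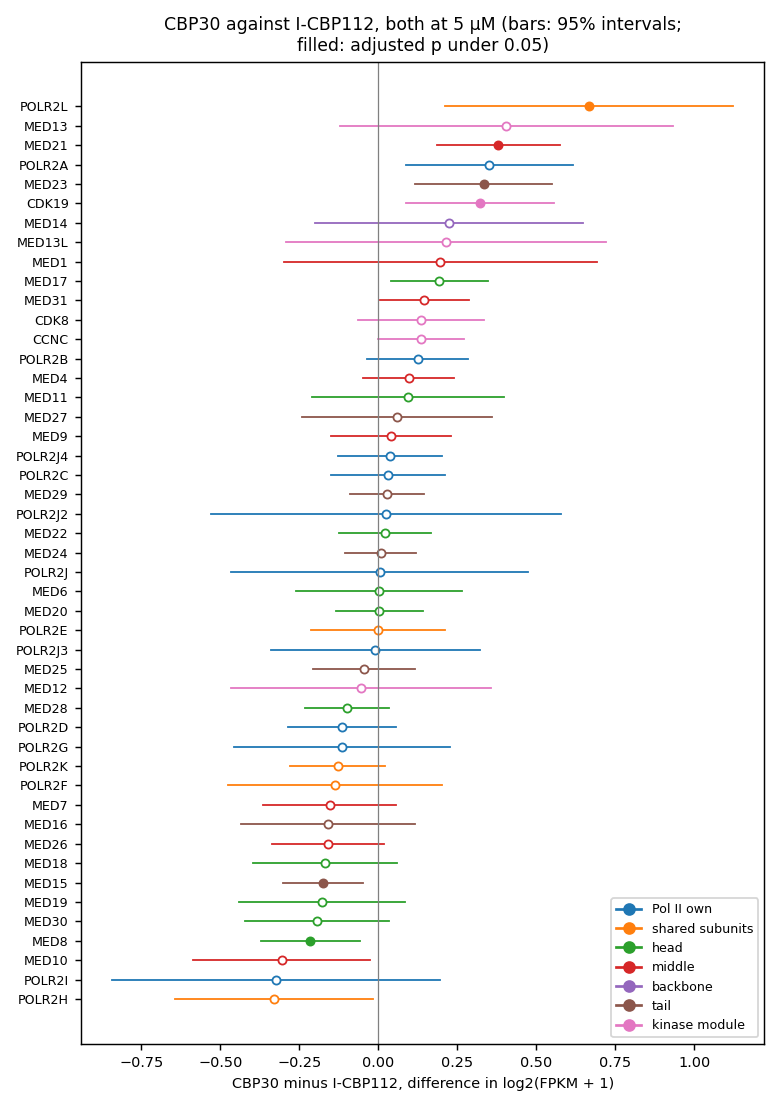
Difference between 5 µM CBP30 and 5 µM I-CBP112 in log2(FPKM + 1) (horizontal axis) for the 47 genes, sorted by size. Points are limma estimates from 2 samples per compound, bars are 95% intervals, and filled points have an adjusted p under 0.05. The filled points are POLR2L, MED21, MED23 and CDK19 on the right, up to 0.67, and MED8 and MED15 on the left.

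At 2 µM, 4 members were higher with CBP30 than with I-CBP112 (MED30, MED18, MED31 and CCNC) and POLR2A was lower, compared with 7.13% and 8.45% of all genes. MED30 differed by 0.60 (95% interval 0.38 to 0.83, limma adjusted p = 0.0103) and by 0.48 without replicate 1 of 2 µM CBP30. POLR2A differed by -0.44 (-0.70 to -0.17, limma adjusted p = 0.043) and by -0.24 without that library (adjusted p = 0.0161). Without replicate 1 of 2 µM CBP30, MED31 (0.39, limma adjusted p = 0.0113) and CCNC (0.25, adjusted p = 0.043) stayed higher with CBP30 and MED18 (0.22, adjusted p = 0.0553) was no longer called. In that fit CDK19 was added to the members called higher, and MED12 and MED1 to those called lower. Without replicate 2 more members were called in both directions, as were more of all genes tested. Leaving out any single sample of DMSO, 5 µM CBP30 or 5 µM I-CBP112 left 2 higher and 0 lower, and any of 2 µM I-CBP112 left 0.

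Between the CBP30 concentrations, 7 members were higher at 5 µM than at 2 µM (MED13, MED1, MED13L, POLR2A, MED21, MED23 and CDK19) and 6 were lower (MED30, POLR2H, MED10, MED18, MED8 and MED15), compared with 17.6% and 21.3% of all genes. Under quantile normalization 8 were higher and 4 lower, and MED15 was no longer lower (0.00084). Of the 7 higher, MED13, MED1, MED13L and POLR2A have transcripts of at least 6000 bases and were low in replicate 1 of 2 µM CBP30. CDK19 also has a long transcript but was at 7.13 FPKM in that library, as against 6.78 and 7.09 with DMSO. The differences shrank without that library, from 0.82 to 0.42 for MED13, from 0.76 to 0.37 for MED1, from 0.71 to 0.32 for MED13L and from 0.64 to 0.45 for POLR2A, and each stayed called. CDK19 did not (0.17, limma adjusted p = 0.069). MED21 was 0.47 higher (SE 0.082, limma adjusted p = 0.0076) and 0.39 without it. MED30 was lower at 5 µM than at 2 µM by 0.59 (SE 0.097, limma adjusted p = 0.00649), and its difference was -0.47 without that library. MED10, a middle subunit, was at 75.9 and 56.5 FPKM with 2 µM CBP30 and at 49.0 and 50.9 with 5 µM. Its difference of -0.38 (limma adjusted p = 0.0404) became -0.17 without replicate 1. Without that library MED23 (0.26, limma adjusted p = 0.0117), MED8 (-0.16, adjusted p = 0.0466), MED18 (-0.23, adjusted p = 0.0328) and MED15 (-0.13, adjusted p = 0.0457) stayed called, POLR2H (-0.27, adjusted p = 0.0787) did not, and POLR2L was called as higher at 5 µM (0.48, adjusted p = 0.0163). Without replicate 1 of 2 µM CBP30 fewer calls were made among the members and among all genes tested. Without replicate 2 more were made among both. Without replicate 1 or 2 of 5 µM CBP30, 0 and 1 were higher and 1 and 0 lower. Leaving out either sample of DMSO gave 3 higher and 3 lower, either of 2 µM I-CBP112 gave 4 and 4, and either of 5 µM I-CBP112 gave 3 and 2. For I-CBP112, limma called 0 members between its concentrations, where 0.0547% of all genes were higher and 0.00782% lower at 5 µM. At an unadjusted p under 0.05 there were 2 members, as against 6.05% of all genes.

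Whether the step from 2 to 5 µM differed between the compounds was tested as an interaction. It passed for MED30 and POLR2A alone, in opposite directions, compared with 3.32% of all genes with a lower and 1.63% with a higher step for CBP30. MED30 changed by -0.59 from 2 to 5 µM CBP30 and by 0.21 from 2 to 5 µM I-CBP112, a difference of -0.80 (SE 0.14, limma adjusted p = 0.0312). POLR2A changed by 0.64 and -0.14, a difference of 0.79 (SE 0.16, adjusted p = 0.0422). Without replicate 1 of 2 µM CBP30 the differences were -0.68 and 0.59, from a fit that leaves 1 sample in that group. Neither call held without any single sample of DMSO, 5 µM CBP30 or I-CBP112.

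The genes of RNA polymerase II and Mediator were set beside other parts of the transcription machinery, from lists chosen with earlier results of these data known. The subunits that RNA polymerases I and III do not share with RNA polymerase II serve ribosomal RNA, transfer RNA and other short RNAs. With 5 µM CBP30, 14 of 19 of these (73.7%) fell and 0 rose, with a median log2 fold change of -0.61 and 18 of 19 below 0, beside 25.4% of all genes that fell and 21.2% that rose. POLR1E, a subunit of RNA polymerase I, fell by 1.02 (limma adjusted p = 2.26e-05) and POLR3D, of RNA polymerase III, by 0.92 (adjusted p = 4.95e-05). Of the 10 genes grouped as RNA polymerase II alone, 1 fell and 0 rose, with a median of 0.03. These include the copies POLR2J2, POLR2J3 and POLR2J4, all under 2 FPKM on average, and POLR2J4 is annotated as a noncoding RNA. Of the 5 subunits shared by the 3 enzymes, 1 fell and 1 rose, with a median of -0.16. At 2 µM CBP30, where 16.3% of all genes fell, 8 of the 19 fell and 0 rose (median -0.18). With all samples in the fit, 0 of the 10 genes of RNA polymerase II alone were called at 2 µM CBP30. At an unadjusted p under 0.05 there were 3, as against 44.5% of all genes. Without replicate 1 of 2 µM CBP30 the median of the 19 was -0.31. At 5 µM I-CBP112, where 3.28% of all genes fell, 2 of the 19 fell (median -0.19, 17 below 0), and at 2 µM I-CBP112 limma called 0 of the 19 (3 at an unadjusted p under 0.05, as against 13.8% of all genes), with 18 of 19 below 0 and a median of -0.13.

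The general transcription factors, which load the polymerase at promoters, had 11 of 34 genes that fell (32.4%) and 2 that rose (5.88%) with 5 µM CBP30 (median -0.08), beside 25.4% and 21.2% of all genes. Among those that fell were CCNH and CDK7, the cyclin and kinase of TFIIH, by 0.79 and 0.42 (limma adjusted p = 0.000242 and 0.0014), and the TATA-binding protein gene TBP by 0.33 (adjusted p = 0.00247). The kinase and cyclin of TFIIH thus fell while CCNC and CDK19 of the Mediator kinase module rose in the same samples. This does not hold for every gene of the 2 assemblies. In TFIIH, ERCC2 fell by 0.45 (limma adjusted p = 0.000231) but ERCC3 rose by 0.22 (adjusted p = 0.0128). In the kinase module CDK8, MED12, MED13 and MED13L were not called with all samples in the fit. The factors of pausing and elongation, which act on the polymerase after it has started, were split, with 6 of 28 lower and 6 higher (21.4% each, median 0.08), beside the same shares of all genes as above. ELL2, of the super elongation complex, rose by 0.72 (limma adjusted p = 0.000297), AFF4, its scaffold, by 0.58 (adjusted p = 0.0384) and CDK9, the pause-release kinase, by 0.30 (adjusted p = 0.0377), whereas TCEA1, which rescues stalled polymerase, fell by 0.83 (adjusted p = 2.43e-05). The difference between these lists was not tested. The calls of AFF4 and CDK9 lie near the threshold, and single genes of these lists were not followed under the other settings.

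**Figure D5:**
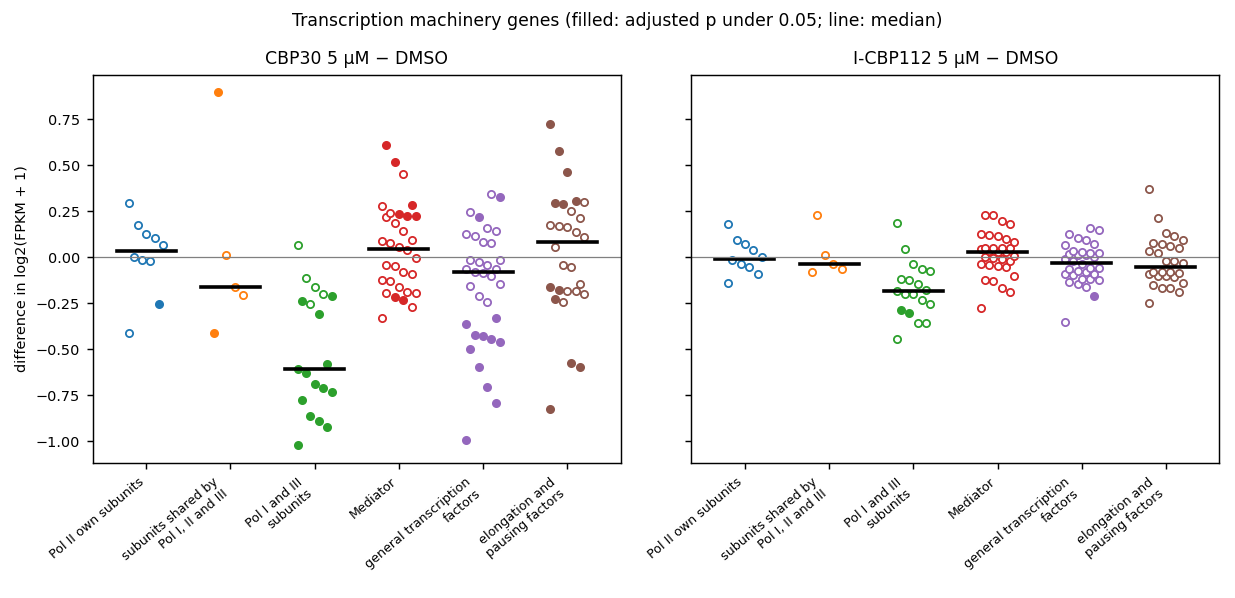
Difference from DMSO in log2(FPKM + 1) (vertical axis) for genes of 6 groups of the transcription machinery (horizontal axis). The left panel is CBP30 and the right panel I-CBP112, both at 5 µM. Each point is a gene, filled where its adjusted p is under 0.05, and lines are medians. With 5 µM CBP30 the subunits of RNA polymerases I and III have a median of -0.61 with 14 of 19 filled. The genes of RNA polymerase II alone have a median of 0.03 with 1 of 10 filled, and include the low copies POLR2J2, POLR2J3 and POLR2J4.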

How the data were processed

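Per the labels, polyadenylated RNA was made into stranded libraries and sequenced as single reads of 50 bases. The authors deposited 1 FPKM value per gene and sample on hg19 (GRCh37). The submitters' processing notes name FastQC, TopHat2 2.0.10, Bowtie 1.0.0, SAMtools 0.1.19, Cufflinks 2.2.1 and Cuffnorm. The gene annotation and the strand setting are not given in the sources used here. Depth in counts is unknown, so no counting error was derived.

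A mean of 0.5 FPKM or more kept 12788 of 23284 genes. Their log2(FPKM + 1) values went into limma 3.58.1 (R 4.3.3), all 5 conditions in 1 fit (eBayes with trend, 5 residual and 2.15 prior degrees of freedom), with Benjamini-Hochberg adjustment over all genes and a threshold of 0.05. A fold change on this scale understates that of low genes. Transcript lengths and positions came from GENCODE on GRCh37, matched by symbol for 94.9% of the tested genes. Tables and figures were made with Python 3.11.15, pandas 2.3.3, scipy 1.17.1 and matplotlib 3.10.9. The alternatives tried were removal of the length trend, a block for the replicate number, both together, each sample left out in turn, a fit of only the groups compared, eBayes without trend, quantile normalization, median centring, another pseudocount (0.1), and either no filter or a minimum mean of 5 FPKM. Genes chosen to be given with sample values were those fixed by role and those called with the most extreme fold changes. The calls were those of each comparison with DMSO or between compounds at 5 µM. For some of these genes only part of the conditions is printed. MED10, MED20, MED24, POLR2G and POLR2I were named after their values were seen. Other members are named only where a role group or a set of calls is described. The members and lists were chosen with earlier results of these data known. No batch is labelled.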

Additional observations from a re-analysis of the deposited data

Results flagged for a closer look

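The change from 2 to 5 µM differed between CBP30 and I-CBP112 for MED30 and POLR2A, by a test of the difference itself over all 12788 genes. MED30 was at 18.1 and 15.2 FPKM with 2 µM CBP30 and at 10.7 and 10.6 with 5 µM, and at 11.0 and 10.1 with 2 µM I-CBP112 and 13.0 and 11.7 with 5 µM, a difference between the log2 steps of -0.80 (limma adjusted p = 0.0312). POLR2A was at 19.7 and 26.0 FPKM with 2 µM CBP30 and at 36.2 and 35.6 with 5 µM, and at 31.5 and 30.5 with 2 µM I-CBP112 and 27.8 and 28.1 with 5 µM, a difference of 0.79 (limma adjusted p = 0.0422). Both rest in part on replicate 1 of 2 µM CBP30, in which short transcripts were high and long ones low. MED30 has a transcript of 985 bases and POLR2A one of 6304. Without that library the differences were -0.68 and 0.59, from a fit that leaves 1 sample at 2 µM CBP30. With the length trend of each sample removed, POLR2A still passed, at 0.55 (limma adjusted p = 0.0135), and MED30 did not. The calls of both were lost without any single sample of DMSO, 5 µM CBP30 or I-CBP112. The part of transcript length in the difference was not tested.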

How the results depend on the processing

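Counts of called members are given as lower and higher. For 5 µM CBP30 against DMSO (4 and 7), quantile normalization gave 1 lower, a fit of only the groups compared 9 and 12, removal of the length trend 14 higher, and that removal with the replicate block 13 higher. For 2 µM CBP30 against DMSO (1 and 5), the filter at 5 FPKM and median centring each gave 2 lower, only the groups compared 0 and 0, length removal 6 and 8, length removal with the block 6 lower, no filter 3 higher and quantile normalization 8 higher. For 5 µM I-CBP112 (0 and 0), only the groups compared gave 1 lower and length removal 1 and 1. For CBP30 against I-CBP112 at 5 µM (2 and 4), no filter gave 1 and 2, the 5 FPKM filter 1 lower, median centring and eBayes without trend 0 lower, quantile normalization 0 and 7, only the groups compared 9 and 13, length removal 1 and 12, and with the block 1 and 11. At 2 µM (1 and 4), no filter and the replicate block gave 0 lower, quantile normalization 2 lower, only the groups compared 0 and 0, length removal 4 lower, and with the block 3 lower. For 5 against 2 µM CBP30 (6 and 7), only the groups compared gave 0 and 0, length removal 3 lower, and with the block 3 and 12. The dose steps differed for 2 members, for 0 with only the groups compared, and for 1 with no filter, the replicate block, length removal, or both.

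Leaving out 1 sample at a time gave 0 to 12 lower and 3 to 15 higher with 5 µM CBP30, 0 to 8 and 1 to 16 with 2 µM CBP30, 0 to 2 and 0 to 2 with 5 µM I-CBP112, 0 to 7 and 0 to 12 between compounds at 5 µM, 0 to 7 and 0 to 19 at 2 µM, 0 to 18 and 0 to 11 between the CBP30 doses, and 0 to 26 for the dose steps. The upper ends of these ranges all came from fits without a sample of 2 µM CBP30. More of all genes tested were called in those fits too, so the upper ends are not read as a result about the members. Of 420 values of the 42 single results under the other alternatives, 333 kept direction and call, 86 lost the call, and 1 turned, MED15 between the CBP30 doses under quantile normalization (0.00084, limma adjusted p = 0.997). Of 420 leave-one-out values, 205 kept the call and 215 lost it, with 0 reversals. The causes were not tested.

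Same-numbered samples did not deviate together (r from -0.07 to 0.09 over 10 pairs of groups). These correlations show no sign of pairing but cannot exclude that same-numbered samples were handled together. With the replicate block, 5 µM CBP30 gave 4 and 6, 2 µM CBP30 1 and 4, the compounds at 5 µM 2 and 3 and at 2 µM 0 and 3, and the CBP30 doses 6 and 6. With 2 samples per condition, small differences in long transcripts could not be told from the spread between the 2 µM CBP30 samples.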
